A study of Arabidopsis thaliana with 12 samples.

Results

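Xyloglucan endotransglucosylase/hydrolases (XTHs) were followed along Arabidopsis thaliana roots, in meristematic and in elongation zone pieces of 3 genotypes. The genes described are XTH16, XTH18, XTH19, XTH21 and XTH33, found by the name their probe sets carry in the platform annotation. In all, 10 XTH genes had a named probe set. These 5 were chosen with earlier results of these data known, so they are not an unselected sample of the family. Each gene had 1 probe set, so 5 probe sets stood for them among the 22746 non-control probe sets of the Affymetrix ATH1 array. All 5 carried a single gene name and passed the filter on dim signals. No probe or transcript sequences were at hand, and none are shown.

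The 12 arrays form 6 groups of 2 biological replicates, each made from about 60 roots of 6-day-old seedlings on standard medium with sucrose. Replicates are labelled biological, with nothing more on how they were kept apart, so p-values measure the spread between these arrays. Seedlings were Col-0 wild type, upb1-1 mutants, or 35S::UPB1-3YFP #2 in the upb1-1 background, called OX here. OX is a single line whose transgene is driven by 35S, a viral promoter active in most plant cells, and it carries the upb1-1 mutation as well, per the labels. UPB1 encodes a basic helix-loop-helix transcription factor known for its part in the balance of reactive oxygen species where root cells stop dividing. Roots of each genotype were cut by razor blade into both zones, so a zone is a piece of root holding several cell types, and fewer cells of a type cannot be told apart from less RNA per cell.

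Xyloglucan is a hemicellulose that coats and tethers cellulose in the primary cell wall. XTH enzymes cut a xyloglucan chain and join the new end to another chain, or to water in the case of hydrolase activity, and the family is known in roots for its activity in the walls of elongating cells and of root hairs. XTH18 and XTH19 are close relatives expressed mainly in roots, and they are direct neighbours in the TAIR10.1 gene table, with XTH24 on the other side of XTH18. XTH21 is known for a role in growth of the primary root, and XTH33 for a predicted membrane anchor.

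Before the results, the checks of the labels are given. UPB1 (AT2G47270), the mutated gene, read between 528 and 1379 on the Col-0 arrays, 8.53 to 16.8 on the upb1-1 arrays and 28.1 to 55.2 on the OX arrays. An overexpressor would be labelled for more UPB1, and the reading in OX was below that of Col-0. No source used here tells if the transgene's transcript is one this probe set can read, so "OX" means the arrays labelled OX in every direction given here. The OX meristematic arrays stood apart from the other meristematic arrays in how much brighter the 3' than the 5' probe sets of actin, GAPDH and ubiquitin were. This 3' to 5' ratio rises when amplified RNA is short. Its mean log2 value was 4.17 there, against 2.22 for Col-0 and 2.04 for upb1-1 meristematic pieces, and it was 3.93 to 4.04 in the 3 elongation groups.

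Markers of cell types also differed between groups. Of 10 markers of dividing cells, 3 had a named probe set (AUR1, AUR2 and BBM), and their summed signal was 688 to 729 in Col-0 and upb1-1 meristematic pieces, 1258 to 1300.1 in OX meristematic pieces and 137 to 362 in all elongation pieces. In each genotype all 3 were lower in elongation pieces. Of 8 root hair markers 2 had one (EXPA7 and EXPA18), and their sum was 747 to 899 in Col-0 and upb1-1 meristematic pieces and 15.4 to 30.6 in OX meristematic pieces, where both lay below the filter level. In the elongation zone that sum was 206 to 383 in Col-0, 1741 to 3272 in upb1-1 and 39.3 to 43.1 in OX. The only named endodermis marker, GSO1, read 160 to 197 in Col-0 and upb1-1 meristematic pieces and 28.3 to 44.6 in OX. The 4 root cap and 7 xylem markers had no named probe set, so those cell types were not checked. LHCB4.1, the only named marker of green tissue, read 1.88 to 77.3, with both OX elongation arrays lowest.

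Signals of XTH16 (AT3G23730, probe set 257203_at) were 502 and 564 in Col-0 meristematic pieces, 709 and 731 in upb1-1, and 56.0 and 40.4 in OX. Its elongation zone signals were 1139.8 and 1238 in Col-0, 1145 and 1210.1 in upb1-1, and 1112 and 1401 in OX. The 3 elongation groups overlapped one another and lay above every meristematic array, while the 3 meristematic groups were separate from each other, with OX lowest.

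XTH18 (AT4G30280, 253628_at) read 856 and 751 in Col-0, 979 and 927 in upb1-1, and 26.4 and 7.19 in OX meristematic pieces. Its elongation signals were 337 and 403 in Col-0, 889.6 and 1319 in upb1-1, and 286 and 268 in OX. The upb1-1 groups of both zones were highest and overlapped each other. Col-0 meristematic, Col-0 elongation, OX elongation and OX meristematic pieces followed in that order, with no overlap between neighbours.

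XTH19 (AT4G30290, 253608_at), the neighbour of XTH18, read 1890.4 and 1808 in Col-0, 2216 and 2409.8 in upb1-1, and 283 and 240.3 in OX meristematic pieces. Elongation pieces gave 1182 and 1779.9 in Col-0, 2365 and 2749.7 in upb1-1, and 1974 and 1911 in OX. Only the OX meristematic arrays stood far below the rest. The upb1-1 groups were highest and overlapped, followed by OX elongation, Col-0 meristematic, Col-0 elongation and OX meristematic pieces without overlap.

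XTH21 (AT2G18800, 266066_at) read 339 and 383 in Col-0, 588 and 542 in upb1-1, and 3.05 and 8.0 in OX meristematic pieces. Elongation pieces read 688 and 685 in Col-0, 872 and 1728 in upb1-1, and 478 and 409.6 in OX. No neighbouring groups overlapped in the order upb1-1 elongation, Col-0 elongation, upb1-1 meristematic, OX elongation, Col-0 meristematic and OX meristematic. The upb1-1 elongation replicates lay 1.98-fold apart.

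XTH33 (AT1G10550, 263207_at), the gene for the protein with the predicted membrane anchor, read no higher than 76.0 outside upb1-1 elongation pieces. It read 38.2 and 51.7 in Col-0, 46.4 and 76.0 in upb1-1, and 19.2 and 26.7 in OX meristematic pieces. Elongation signals were 57.6 and 44.4 in Col-0, 102 and 173 in upb1-1, and 25.2 and 40.9 in OX. Only upb1-1 elongation pieces stood clear of their neighbour in the order; the other 5 groups overlapped their neighbours. It reached the filter level, the 40th percentile of an array's signals, on 9 of 12 arrays. Both OX meristematic arrays and OX elongation replicate 1 were below it.

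**Figure D1:**
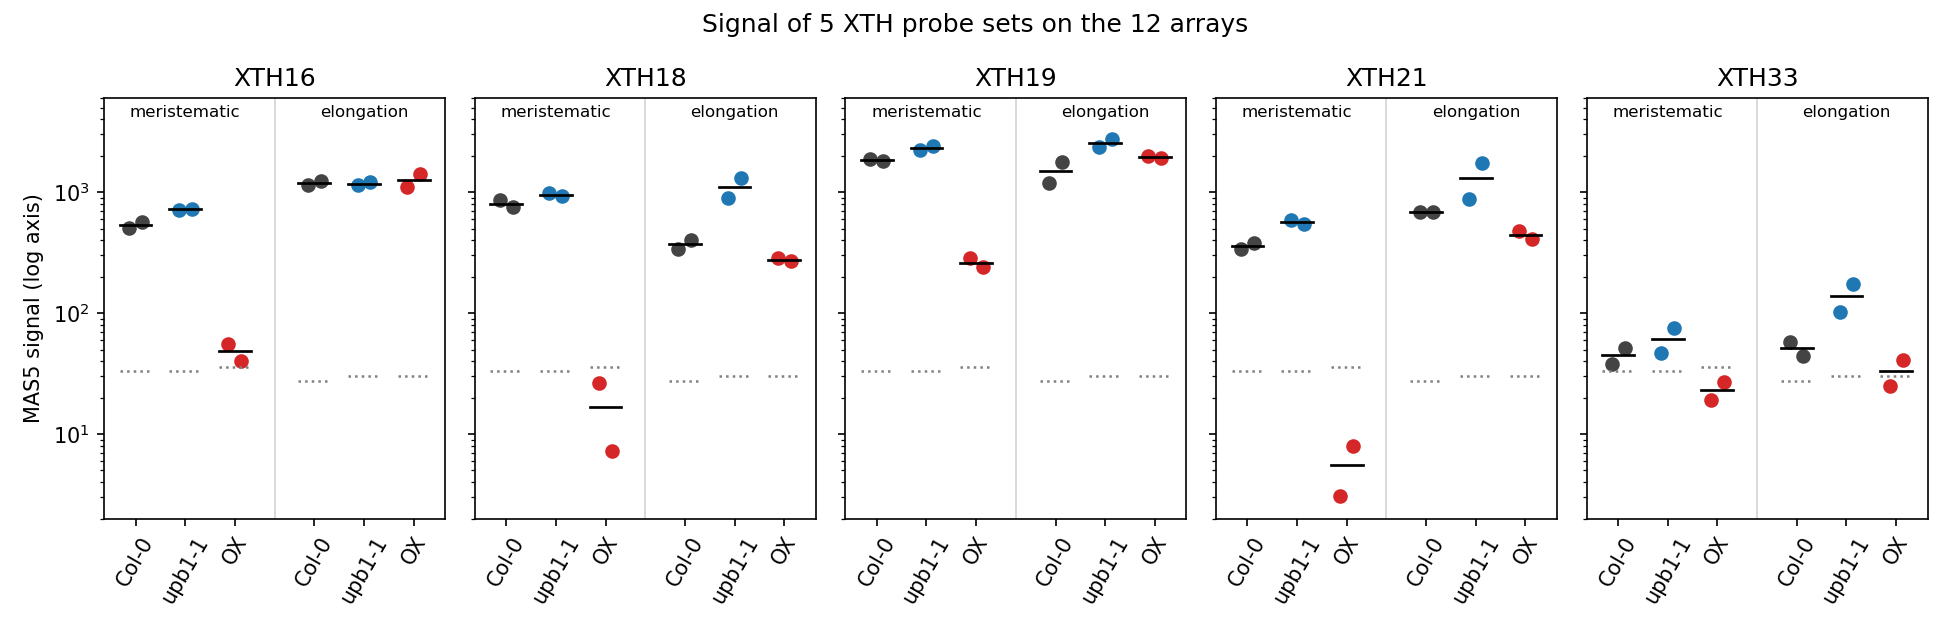
MAS5 signal (log axis) of the 5 XTH probe sets in each of the 6 groups. Points are single arrays, black bars group means of 2 arrays and dotted bars the mean filter level of the group (the 40th percentile of each array). XTH16, XTH18, XTH19 and XTH21 drop on the OX meristematic arrays, XTH18 and XTH21 to below the filter level, and XTH18, XTH19, XTH21 and XTH33 have their highest mean in upb1-1 elongation pieces. XTH33 also lies below the filter level on both OX meristematic arrays.

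The largest differences between genotypes were those of the OX meristematic pieces. Differences are given on the log2(signal + 16) scale with limma's standard error (SE), its 95% interval where shown, and a p adjusted over 15834 tested probe sets, and a gene passed at an adjusted p below 0.05. Relative to Col-0, XTH18 fell by 4.70 (SE 0.25, adjusted p = 3.4e-09), XTH21 fell by 4.14 (SE 0.25, adjusted p = 1.2e-08), XTH16 fell by 3.10 (SE 0.18, adjusted p = 6.92e-09) and XTH19 fell by 2.75 (SE 0.19, adjusted p = 4.54e-08). XTH33 did not pass, at -0.64 (SE 0.29, adjusted p = 0.0824). Thus 4 of 5 members were lower, where 23.5% of all tested probe sets were, and the members' median was -3.10 against 0.10 over all tested probe sets.

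As ratios of mean signals, Col-0 was 11.1 times OX for XTH16 and 7.07 times for XTH19. XTH18 and XTH21 were below the filter level on both OX meristematic arrays, so for them only a bound is given, the Col-0 mean over those arrays' filter level (means of log2 signals). By it Col-0 was at least 22.5-fold higher for XTH18 and at least 10.1-fold higher for XTH21. The fitted size of their fall depends on the constant added before taking logs. With 1 in place of 16, XTH18 gave -5.74 and XTH21 -5.90. With 64 they gave -3.43 and -2.61, and both passed with either constant. XTH33 was below the filter level on both OX meristematic arrays too. Its Col-0 level was only 1.25-fold above that level, so a fall as large as that of the other members could not be read.

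Against upb1-1, the background of OX without the transgene, all 5 members were lower in OX meristematic pieces, where 24.5% of tested probe sets were. XTH18 fell by 4.95 (SE 0.25, adjusted p = 1.94e-09), XTH21 by 4.76, XTH16 by 3.53 and XTH19 by 3.07. XTH33 fell by 0.97 (SE 0.29, adjusted p = 0.0132), or by 0.52 with 64 added before logs, and its call was lost without upb1-1 replicate 2 (-0.68, adjusted p = 0.149) or without OX replicate 1 (-0.83, adjusted p = 0.0836). The comparisons with Col-0 and with upb1-1 share the OX arrays. The median of the members was -3.53.

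The arrays with these falls were also those with little root hair and GSO1 signal and a 3' to 5' ratio above other meristematic arrays. Their sum of dividing cell markers was higher, 1258 to 1300.1 against 688 to 729 in Col-0 and upb1-1 meristematic pieces. Against Col-0, AUR1 (0.86) and BBM (1.12) passed as higher, and AUR2 gave 0.63 without passing. Elongation pieces had 3' to 5' ratios of 3.93 to 4.04, close to the 4.17 of OX meristematic pieces. XTH16 read 1112 to 1401 on the 6 elongation arrays, against 40.4 and 56.0 on the OX meristematic arrays. XTH21 read 409.6 to 1728 on the elongation arrays, against 3.05 and 8.0. For XTH18 the values were 268 to 1319 against 26.4 and 7.19, and for XTH19 1182 to 2749.7 against 283 and 240.3. Those of XTH33 overlapped, at 25.2 to 173 against 19.2 and 26.7. Elongation pieces are another part of the root, and among meristematic pieces the ratio was that high in OX alone. What part the ratio and the root hair, endodermis and dividing cell signals have in the falls was not tested.

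**Figure D2:**
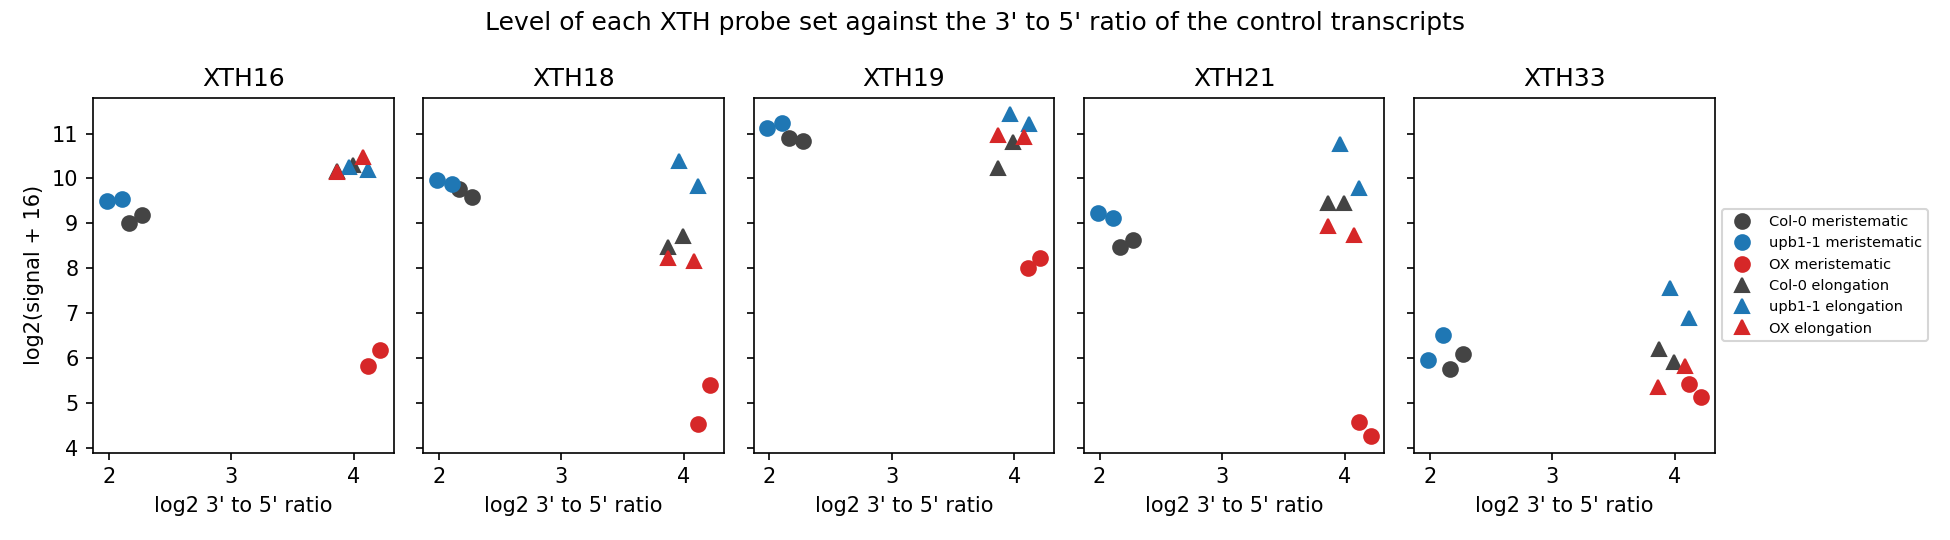
Level of each XTH probe set, as log2(signal + 16), against the mean log2 3' to 5' signal ratio of the actin, GAPDH and ubiquitin controls, 1 point per array. Circles are meristematic and triangles elongation pieces. The mean ratio is 4.17 in OX meristematic, 2.04 and 2.22 in the other meristematic and 3.93 to 4.04 in the elongation groups, and the lowest levels of XTH16, XTH18, XTH19 and XTH21 are those of the OX meristematic arrays.

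Setting upb1-1 against Col-0 asks what differs in the mutant. In the meristematic zone all 5 differences were positive and small, between 0.24 for XTH18 and 0.63 for XTH21, and none passed by limma, where 0.0379% of tested probe sets did. At an unadjusted p below 0.05 there were 2, XTH16 (0.42, 95% interval 0.04 to 0.81) and XTH21 (0.63, 0.09 to 1.16), and 1.67% of all tested probe sets. The replicates of upb1-1 lay above those of Col-0 without overlap for 4 members, XTH33 being the exception, and 17.1% of tested probe sets were separated that way. The median of the members was 0.32, against 0.00 for all tested probe sets.

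In the elongation zone 4 of the 5 members were higher in upb1-1 than in Col-0, where 9.36% of tested probe sets were higher. XTH18 rose by 1.51 (SE 0.25, adjusted p = 0.00163), from 370.0 ± 46.1 to 1104 ± 303 (SD, n = 2). XTH33 rose by 1.17 (SE 0.29, adjusted p = 0.0143), from 51.0 ± 9.31 to 138 ± 49.7. XTH21 rose by 0.82 (adjusted p = 0.0339) and XTH19 by 0.81 (adjusted p = 0.0101). XTH16 did not pass (-0.01, 95% interval -0.39 to 0.37). The median of the members was 0.82 against -0.02 for all tested probe sets. Markers moved in the same pieces. The root hair genes EXPA18 (3.62) and EXPA7 (2.64) rose, as did the endodermis marker GSO1 by 1.04 (adjusted p = 0.00635), from 185 and 190.2 to 342 and 475. Of the markers of dividing cells, AUR1 at -0.83 and AUR2 at -0.91 fell, while BBM gave 0.30 without passing. The part of all these markers in the XTH rises was not tested.

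The rise of XTH18 passed under every alternative run, with 1.24 to 1.79 when 1 of the 4 arrays was left out. The other 3 calls depended on single arrays and on the fit. With only the arrays compared in the fit, XTH19 (adjusted p = 0.0925), XTH21 (0.14) and XTH33 (0.0543) did not pass. XTH21 also failed with 1 added before logs (0.111), median centring (0.0502), no filter (0.0584) and no variance trend (0.0612). When Col-0 replicate 1 was left out, XTH19 (0.51, adjusted p = 0.152), XTH21 (0.83, 0.162) and XTH33 (1.31, 0.0676) no longer passed. The same 3 failed with upb1-1 replicate 2 removed, at 0.70 (0.0783), 0.34 (0.38) and 0.83 (0.174). Removing Col-0 replicate 2 ended the calls of XTH21 (0.82, 0.0884) and XTH33 (1.02, 0.0692). With upb1-1 replicate 1 removed XTH21 stood at 1.31 and passed. Of the upb1-1 elongation arrays, replicate 2 read higher than replicate 1 for each of the 5 members. The same array also had the higher root hair sum, 3272 against 1741.

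For the 5 members, OX was closer to Col-0 in the elongation zone than in the meristematic zone. Markers differed between these elongation pieces. EXPA7 at -2.17, EXPA18 at -1.91 and LHCB4.1 at -1.73 were lower in OX. GSO1 gave -0.66 without passing, and no marker of dividing cells passed. The part of these markers was not tested. None of the 5 members passed between OX and Col-0, where 14.1% of all tested probe sets did. By limma 2 had an unadjusted p below 0.05, XTH21 (-0.62, 95% interval -1.15 to -0.08) and XTH19 (0.42, 0.01 to 0.82), and 28.8% of all tested probe sets had one. XTH18 gave -0.39 (-0.93 to 0.15), XTH33 -0.46 (-1.09 to 0.17) and XTH16 0.07 (-0.31 to 0.45). OX replicates lay below those of Col-0 without overlap for 3 members (27.0% of tested probe sets) and above for 1, XTH19 (28.0%). Without Col-0 replicate 2, XTH19 passed at 0.71 (adjusted p = 0.0348).

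Relative to upb1-1, 3 of the 5 members were lower in OX elongation pieces, where 12.6% of tested probe sets were. XTH18 fell by 1.91 (SE 0.25, adjusted p = 0.000105), XTH33 fell by 1.63 (SE 0.29, adjusted p = 0.00128) and XTH21 fell by 1.44 (SE 0.25, adjusted p = 0.000985). XTH19 gave -0.39 (95% interval -0.80 to 0.02) and XTH16 gave 0.08 (-0.30 to 0.46) without passing. These 3 falls passed under every alternative run, though XTH21 shrank to -0.95 without upb1-1 replicate 2 and XTH33 to -1.04 with 64 added. They share the upb1-1 elongation arrays with the rises over Col-0. The root hair markers fell too, with EXPA18 at -5.52 and EXPA7 at -4.81. GSO1, the endodermis marker, fell by 1.70 (adjusted p = 9.29e-05), from 342 and 475 in upb1-1 to 129 and 98.7 in OX. The part of these markers in the XTH falls was not tested.

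**Figure D3:**
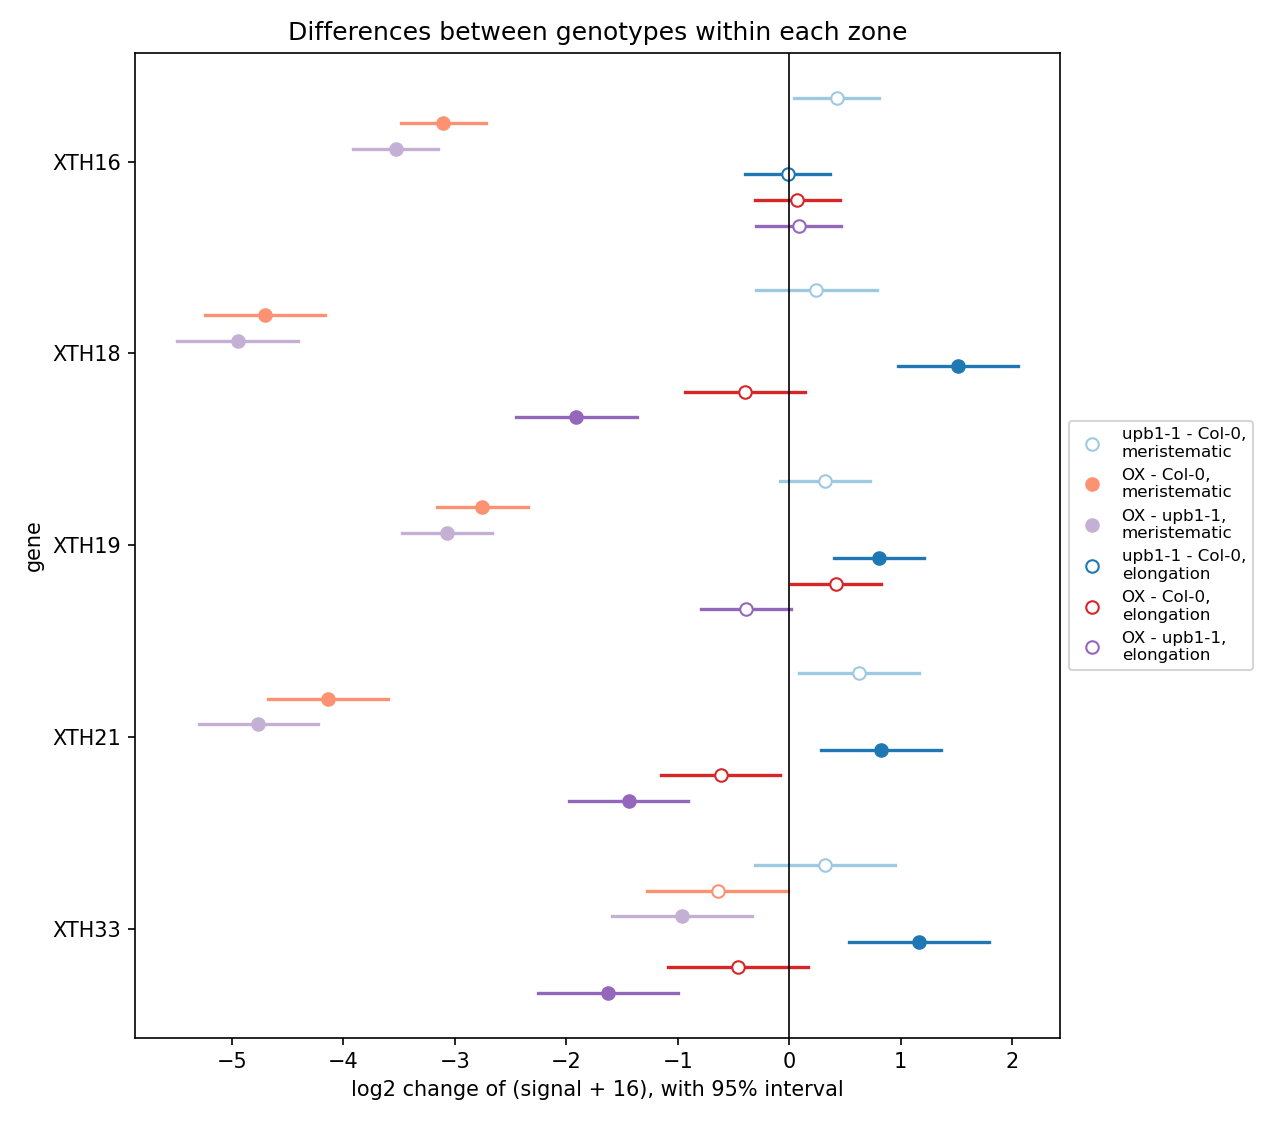
Log2 change of (signal + 16) of each XTH gene between genotypes, with its 95% interval, in the meristematic (pale) and the elongation zone (dark). Filled points passed at an adjusted p below 0.05. The falls of OX reach -4.70 against Col-0 in the meristematic zone, while none passed against Col-0 in the elongation zone.

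Comparison of the zones asks how the signals differ between the elongation and the meristematic pieces of a genotype. The mean log2 3' to 5' ratio of meristematic and elongation pieces was 2.22 and 3.93 in Col-0 and 2.04 and 4.04 in upb1-1. In OX it was 4.17 and 3.97. What part the ratio has in the zone differences, and in how they differ between genotypes, was not tested. In Col-0, XTH16 and XTH21 were higher in the elongation zone and XTH18 was lower. XTH16 rose by 1.13 (SE 0.18, adjusted p = 0.000205), XTH21 rose by 0.90 (SE 0.25, adjusted p = 0.0103) and XTH18 fell by 1.09 (SE 0.25, adjusted p = 0.00337). XTH19 gave -0.35 (95% interval -0.75 to 0.06) and XTH33 0.14 (-0.49 to 0.77) without passing. Against 2 of 5 higher and 1 of 5 lower, 17.5% of all tested probe sets were higher and 22.8% lower. XTH21 no longer passed once Col-0 meristematic replicate 1 was removed (0.82, adjusted p = 0.0795), and XTH19 passed without Col-0 elongation replicate 2 (-0.64, adjusted p = 0.0254). The root hair markers fell between the same pieces, with EXPA7 at -1.1 and EXPA18 at -2.26, as did all 3 markers of dividing cells, while GSO1 gave 0.08 without passing. Their part in the zone differences was not tested.

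In upb1-1, 3 members were higher in the elongation zone and none lower, where 24.1% of tested probe sets were higher. XTH21 rose by 1.1 (SE 0.25, adjusted p = 0.00198), XTH33 by 0.98 (SE 0.29, adjusted p = 0.0115) and XTH16 by 0.70 (SE 0.18, adjusted p = 0.00435). XTH18 gave 0.18 (-0.36 to 0.72) and XTH19 0.14 (-0.26 to 0.55). The call of XTH33 was lost without upb1-1 meristematic replicate 1 (0.70, adjusted p = 0.136) or elongation replicate 2 (0.65, adjusted p = 0.139), and XTH21 stood at 0.61 without the latter. In the same pieces EXPA7 (1.54), EXPA18 (1.56) and GSO1 (1.12) rose and the markers of dividing cells fell, and their part was not tested.

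In OX, 4 members rose steeply from the meristematic to the elongation pieces, where 23.9% of tested probe sets rose. XTH21 rose by 4.42 (SE 0.25, adjusted p = 7.3e-09), XTH16 by 4.31 (SE 0.18, adjusted p = 4.13e-10), XTH18 by 3.22 (SE 0.25, adjusted p = 1.55e-07) and XTH19 by 2.82 (SE 0.19, adjusted p = 3.24e-08). XTH33 gave 0.32 (-0.31 to 0.95), with both meristematic arrays and elongation replicate 1 below the filter level. With 64 added XTH18 rose by 2.09 and XTH21 by 2.87. Over the filter level of the OX meristematic arrays, elongation pieces were at least 12.4-fold higher for XTH21 and at least 7.77-fold higher for XTH18. The 3 markers of dividing cells fell between the same pieces. Of the root hair markers, EXPA7 rose by 1.00, from 23.1 and 1.91 to 35.3 and 38.3, and EXPA18 gave -0.37 without passing. GSO1 rose by 1.32, and the part of these markers was not tested.

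Scaling bears on the zone comparisons. With each array centred on its median, the typical change over all tested probe sets moved from -0.06 to 0.21 in Col-0, from -0.04 to 0.21 in upb1-1 and from -0.11 to 0.12 in OX. The share of calls that were higher went from 43.4% to 65.2%, from 45.9% to 61.1% and from 44.7% to 57.8%. It ended no zone call of the 5 members. XTH18 in Col-0 then gave -0.82 (adjusted p = 0.0232).

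**Figure D4:**
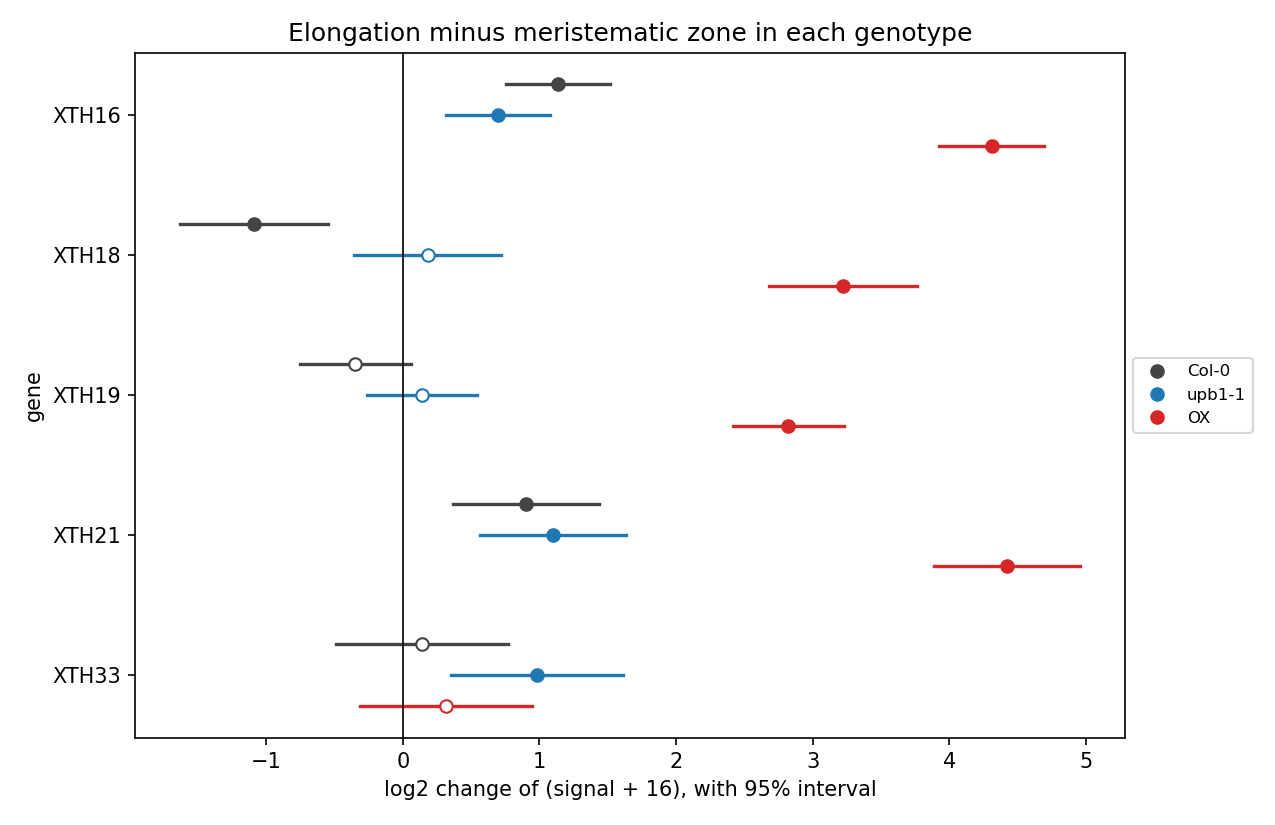
Elongation minus meristematic zone for each XTH gene in Col-0, upb1-1 and OX, as log2 change of (signal + 16) with its 95% interval. Filled points passed at an adjusted p below 0.05. OX lies at 2.82 to 4.42 for XTH16, XTH18, XTH19 and XTH21, beyond the intervals of Col-0 and upb1-1, and XTH18 lies below 0 in Col-0 alone.

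Whether the zone difference itself depended on genotype was tested by interaction terms. Between OX and Col-0 it was larger in OX by 4.31 for XTH18 (SE 0.36, adjusted p = 2.58e-06), 3.52 for XTH21 (SE 0.35, adjusted p = 1.35e-05), 3.17 for XTH16 (SE 0.25, adjusted p = 1.83e-06) and 3.17 for XTH19 (SE 0.27, adjusted p = 2.82e-06). Thus 4 of 5 members were higher, where 13.2% of tested probe sets were, and XTH33 gave 0.18 (95% interval -0.71 to 1.07). XTH33 lay below the filter level on both OX meristematic arrays. Between OX and upb1-1 the same 4 members were higher by 2.68 to 3.61, where 14.8% of tested probe sets were, and XTH33 gave -0.66 (-1.55 to 0.23). With 64 added, XTH21 gave 2.04 against Col-0 and 1.82 against upb1-1, where XTH18 gave 1.91 and, with 1 added, XTH21 gave 5.08. All of these passed. Between OX and Col-0 the 3 markers of dividing cells passed as lower in this interaction. Both root hair markers and GSO1 (1.24) passed as higher, and the part of these markers was not tested.

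No member passed the interaction of upb1-1 and Col-0, where 2.27% of tested probe sets did. XTH18 was lower in elongation than in meristematic pieces of Col-0 and gave 0.18 between those of upb1-1. It came nearest, with a difference of 1.27 (SE 0.36, adjusted p = 0.0758). It had the only unadjusted p below 0.05 among the 5 by limma, where 19.2% of all tested probe sets had one. Both root hair markers passed this interaction, EXPA18 at 3.82 and EXPA7 at 2.64, and their part was not tested. It passed with 64 added before logs (1.18, adjusted p = 0.0242), without upb1-1 elongation replicate 1 (1.55, 0.01) and without the OX meristematic arrays in the fit (1.27, 0.0396). Under its other alternatives it did not pass. Of all calls in this interaction 65.5% were higher, or 52.4% after median centring.

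Likeness among XTH16, XTH18, XTH19 and XTH21 depended on the OX meristematic arrays. Pearson's r between pairs of members on the log2 scale was 0.81 to 0.95 among XTH16, XTH18, XTH19 and XTH21, as a description, since arrays of a group share their source. Over the 10 arrays without the OX meristematic pair it was -0.51 for XTH16 with XTH18 and -0.04 for XTH16 with XTH19. Over the same 10 arrays XTH21 gave 0.53 with XTH16, 0.39 with XTH18 and 0.40 with XTH19. The neighbours XTH18 and XTH19 gave 0.95 over 12 and 0.66 over 10 arrays. For XTH21 and XTH33 it was 0.73 and 0.84. XTH33 gave 0.70 and 0.67 with XTH18, 0.62 and 0.52 with XTH19, and 0.56 and 0.21 with XTH16.

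Among 8901 other tested probe sets with 1 named gene, those most like each member over the 12 arrays were found by the same r. All of those named here had their lowest mean in OX meristematic pieces, and their r was not taken without those arrays. XTH21 was most like IQD19, a gene of the calmodulin-binding IQD family (r = 0.99), which read 13.7 on average in OX meristematic and 263 to 534 in the other groups. AT3G16850 and PIA1, a protein phosphatase gene, followed (both r = 0.99). For XTH16 they were AT2G18980, AT1G67330 and AT1G05320 (all r = 0.99), and for XTH18 AT4G09890, AT3G05920 and AT5G57785 (0.98 to 0.99). For XTH19 they were AT5G42860, AT2G14900 and AT1G45688 (0.98 to 0.99), and for XTH33 AT3G21340, AT3G56230 and TBL34, a gene of a family of wall polysaccharide acetyltransferases (0.94 to 0.95).

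Of the 28 other XTH genes, 5 had a named probe set here, and only EXGT-A3 (XTH27) reached the filter. EXGT-A3 read 428 and 457 in Col-0, 448 and 549.6 in upb1-1, and 414 and 266 in OX meristematic pieces. In the elongation zone it read 477 and 553 in Col-0, 761 and 1341 in upb1-1, and 659 and 536 in OX. It rose in upb1-1 over Col-0 elongation pieces by 0.96 (adjusted p = 0.0184), and in OX against Col-0 meristematic pieces it gave -0.40 (SE 0.25, adjusted p = 0.207). XTH20, XTH26, XTH29 and XTH32 were too dim to be tested.

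Genes that make xyloglucan were represented by 4 CSLC glucan synthases, CSLC04 (CSLC4), CSLC5, CSLC6 and CSLC12, which belong to the family that builds its backbone. In OX against Col-0 meristematic pieces 3 of 4 fell, CSLC04 by 1.40 (adjusted p = 7.42e-06), CSLC6 by 0.85 (0.0117) and CSLC5 by 0.64 (0.0138), and the median was -0.80, where 23.5% of all tested probe sets fell. CSLC04 read 735 and 641 in Col-0 against 254 and 247 in OX. In upb1-1 against Col-0 elongation pieces 1 of 4 rose, where 9.36% of all tested probe sets rose, and the median was 0.53. This was CSLC12, by 1.64 (adjusted p = 0.00356), from 27.8 and 23.0 to 86.6 and 145. Both Col-0 readings lay below the filter levels of their arrays, 28.8 and 26.2, so the size depends on the constant added before logs. None of the 4 listed genes of xyloglucan trimming had a named probe set.

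COB, which encodes a glycosylphosphatidylinositol-anchored protein needed for oriented cellulose deposition and was the only named gene of the primary wall cellulose list, read 1774 and 1924 in Col-0 and 322 and 358 in OX meristematic pieces. It fell by 2.39 (adjusted p = 4.26e-08) there and gave -0.02 (adjusted p = 0.944) in upb1-1 against Col-0 elongation pieces. Of 14 tested expansins, which loosen walls, 7 fell and 1 rose in OX against Col-0 meristematic pieces, where 23.5% of all tested probe sets fell and 26.0% rose. Their median was -0.36, with EXPB1 at -4.70. In upb1-1 against Col-0 elongation pieces 3 of 14 rose, where 9.36% of all did. These were EXPA18 (3.62), EXPA7 (2.64) and EXLA1 (1.01, adjusted p = 0.00713), and the median was 0.39. The pair EXPA18 and EXPA7 also served as the root hair markers.

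**Figure D5:**
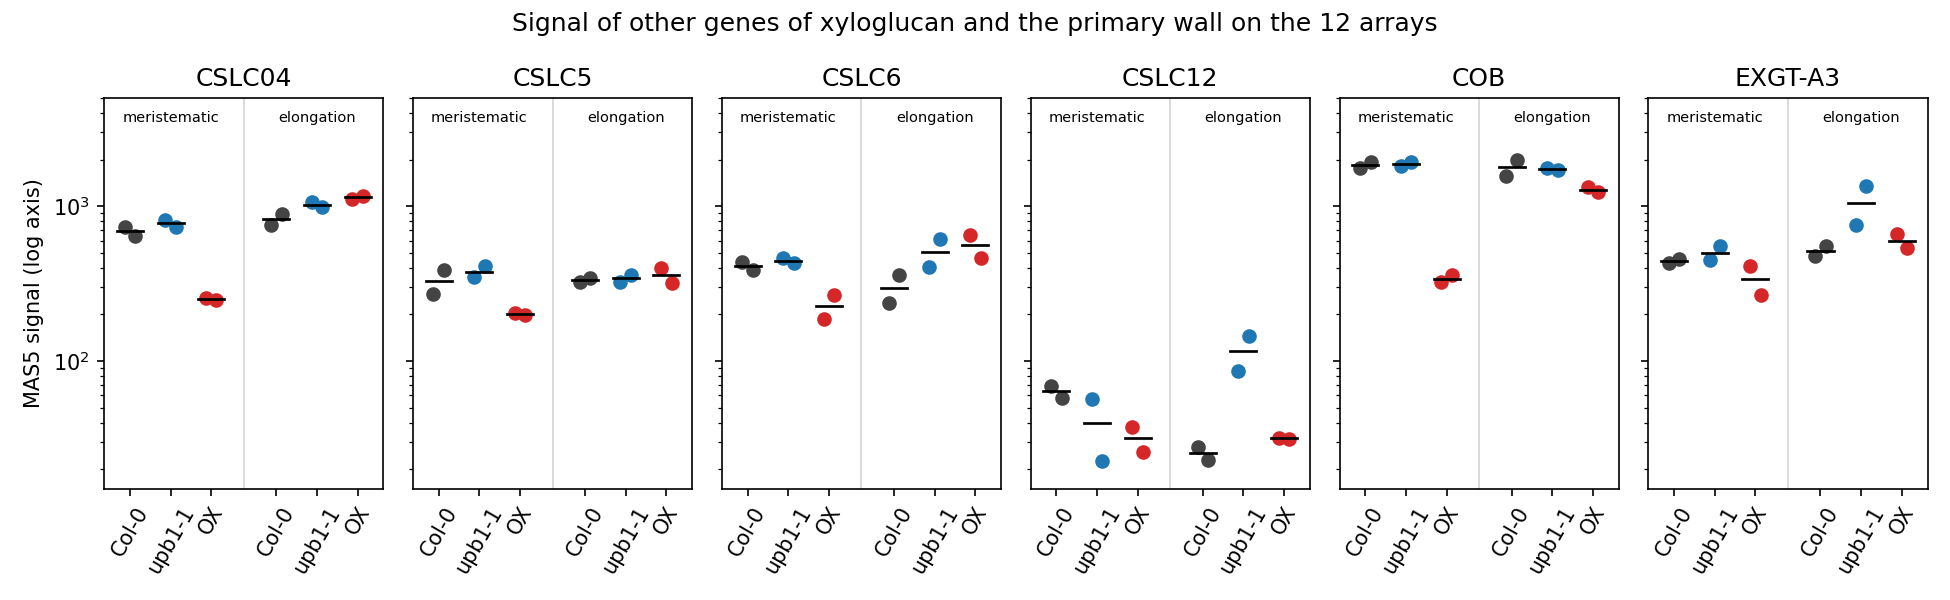
MAS5 signal (log axis) of 4 CSLC genes, COB and EXGT-A3 in each group, with single arrays as points and group means as bars. COB and CSLC04 drop on the OX meristematic arrays, and EXGT-A3 and CSLC12 have their highest mean in upb1-1 elongation pieces.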

How the data were processed

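Total RNA was amplified in 2 cycles, per the labels' protocols, and hybridised to Affymetrix ATH1 arrays. The deposited values are linear signal intensities, 1 per probe set, which the authors made with MAS5, per the submitters' processing notes; its version and scaling target are not given in the sources used here. Of 22810 probe sets, 64 controls were left out. Here 16 was added, log2 taken and nothing rescaled. Tested were the 15834 probe sets whose signal was, on 2 or more of the 12 arrays, no lower than the array's 40th percentile. Fits used limma 3.58.1 in R 4.3.3, with 6 group means over all arrays, eBayes with a variance trend (8.75 prior degrees of freedom) and Benjamini-Hochberg adjustment within each of 12 comparisons. The code was tested on simulated data. The number of arrays limits the precision.

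Genes were named from the platform annotation (14016 probe sets) and the TAIR10.1 gene table. Among those tested, 8906 carry 1 name and 328 several; the other 6600 are unnamed here. Members, lists, the rule for naming genes (members, UPB1, up to 3 of each list by p, and the 3 probe sets most correlated with a member) and alternatives were chosen with earlier results of these data known. Alternatives changed the constant, scaling, filter, variance trend, arrays fitted and replicate block, or left out an array. Where several probe sets gave 1 gene, the brightest stood for it in a list.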

Additional observations from a re-analysis of the deposited data

Results flagged for a closer look

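The difference between elongation and meristematic zone was larger in OX than in Col-0 for XTH18 (4.31), XTH21 (3.52), XTH16 (3.17) and XTH19 (3.17), on the log2 scale and by limma's interaction term. It was also larger in OX than in upb1-1 for XTH16 (3.61), XTH21 (3.32), XTH18 (3.04) and XTH19 (2.68). Both sets share the OX arrays, and these 8 interactions passed under every alternative run. The OX meristematic arrays, which carry the low values, also had the 3' to 5' control ratio of 4.17 and the root hair sum of 15.4 to 30.6 given above. Their sum of dividing cell markers was 1258 to 1300.1, against 688 to 729 in the other meristematic pieces.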

How the results depend on the processing

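Single-gene results of the 5 members were recomputed in 815 instances, of which 781 kept direction and side of the threshold, 20 lost a call, 5 gained one and 9 changed sign. The 9 changes of sign were all of values near 0 that had not passed and came from fits with 1 array fewer. With 1 array left out in turn, XTH16 ran from -0.0717 to 0.0459 in upb1-1 against Col-0, from -0.0937 to 0.235 in OX against Col-0 and from -0.0808 to 0.248 in OX against upb1-1, all in the elongation zone. XTH33 ran from -0.0227 to 0.299 for the zones of Col-0, where -0.0039 was the other value below 0, and from -0.0518 to 0.414 in the interaction of OX and Col-0. XTH18 ran from -0.0969 to 0.463 for the zones of upb1-1, and XTH21 from -0.29 to 0.685 in the interaction of upb1-1 and Col-0.

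The count of members that passed in upb1-1 against Col-0 elongation pieces, 4, was 1 with only the arrays compared, where fewer arrays estimate the spread, and 1 to 4 when an array was left out. In OX against Col-0 elongation pieces it was 0 to 1, and in the interaction of upb1-1 and Col-0 also 0 to 1. That interaction gave 1 with 64 added and 1 without the OX meristematic arrays, which was tried after seeing the data. The cause was not tested.

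Replicate numbers are shared between groups, and the labels do not say if same-numbered arrays share more than that. Deviations of same-numbered arrays correlated between -0.15 and 0.28 over 15 pairs of groups, with 2 above 0.1. These 2 were Col-0 with upb1-1 elongation pieces (0.28) and Col-0 with upb1-1 meristematic pieces (0.11). With the replicate block, 4 members passed in upb1-1 against Col-0 elongation pieces, and it changed none of the 60 single-gene calls.

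Counts over all tested probe sets moved more, given here without the OX meristematic comparisons and the zones of upb1-1 and OX. They ran from 3 to 16 (main 6) in upb1-1 against Col-0 meristematic and from 531 to 4745 (2979) in elongation pieces, from 781 to 2315 (2234) and from 1758 to 5321 (3828) in OX against Col-0 and against upb1-1 elongation pieces, from 4015 to 6892 (6382) for the zones of Col-0, and from 59 to 2403 (359), 2361 to 4171 (3803) and 2623 to 4641 (4151) in the interactions of upb1-1 with Col-0, OX with Col-0 and OX with upb1-1.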

Other observations

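XTH20 read 10.1 to 34.7, XTH26 0.768 to 4.54, XTH29 2.06 to 37.4 and XTH32 5.48 to 46.7 over the 12 arrays, and each reached the filter level on fewer than 2 arrays. The zone difference of COB was larger in OX than in Col-0 by 1.93 (log2, adjusted p = 5.47e-05 by limma), as was that of CSLC04 by 1.87 (adjusted p = 6.4e-05), CSLC6 by 1.73 (adjusted p = 0.0031) and EXPB1 by 3.52 (adjusted p = 1.11e-05). Of the 14 tested expansins 6 were higher in that interaction, where 13.2% of all tested probe sets were.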
